A study of Mus musculus with 16 samples.

Results

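The genes described here encode 41 proteins of synaptic adhesion, chosen by name from 21755 protein-coding genes of mouse chromosomes 1 to 19 and X. They comprise neurexins and neuroligins, contactins and contactin-associated proteins, leucine-rich repeat proteins, latrophilins and teneurins, immunoglobulin superfamily receptors, IgLONs and Csmd1. For each gene, the chromatin loops of the neonatal cochlea were examined that had an anchor bin in the gene body or within 20 kb of its start site (anchored loops), that had both anchor bins in the gene (inside loops), or that passed over the whole gene (spanning loops).

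Micro-C was performed on whole cochleae of C57Bl/6 mice, labelled P0 in the sample titles and P0/1 in the series' design. In this assay micrococcal nuclease trims fixed chromatin to nucleosomes and ends that lie near each other are joined, so that a read pair records a contact in the nucleus. The 4 replicates, of which the study calls the last a technical one, were merged before loops were called in 10 kb bins. By the study's counts this technical replicate gave most of the read pairs, so that it weighs most in the merged data. The single merged list held 6798 loops with a false discovery rate (FDR) below 0.1 in 11828 anchor bins, and it held no read counts, so that the depth behind a loop is unknown and no spread between replicates could be given. It holds no expression values either, so that marker genes of the tissue could not be checked. There was 1 group and no treatment, and every comparison below is a description set against other genes or other loops. Because the tissue holds many cell types, a weak loop present in all cells and a strong loop present in few cannot be told apart. A gene without a loop in the list is therefore one at which no loop was called at this depth.

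Synaptic adhesion proteins sit on the surfaces of the presynaptic and postsynaptic cell and bind each other across the cleft. Neurexins bind neuroligins and LRRTM proteins, while latrophilins bind teneurins and FLRT proteins, so that most of these families form partner sets. In the cochlea such proteins serve the contacts between hair cells and spiral ganglion neurons, which are still being refined at birth. Many of the genes are exceptionally long, and most of their length is intron. Chromatin loops are often held at their bases by the DNA-binding protein CTCF, whose motif has a direction, and the pair of motifs at a loop typically face each other.

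The only loops that joined members to each other ran between the neighbouring IgLON genes Opcml and Ntm, which encode glycolipid-anchored immunoglobulin proteins of the neuronal surface. The anchor bins of the longer one lay 1380 kb apart, and each held a perfect match to the CTCF consensus. The sequences at its anchors are given first because the left one was used by 3 loops, among them both loops between these genes. Each is written 5′ to 3′ on the strand of the match (GRCm38, also called mm10), and capitals mark the 14 bases that match the consensus.
Opcml intron 1, plus strand, chr9:28261563-28261592: aatcataaCCACCAGATGGCGCcaaatctc
Ntm intron 1, minus strand, chr9:29643441-29643470: agcggtcgCCACCAGAGGGCAGtaagagaa
The matches faced each other across the loop, the orientation called convergent. The same Opcml match stood in the bin of a 1190 kb loop, whose partner bin in Ntm held a match with 1 mismatch on the minus strand.
Ntm intron 1, minus strand, chr9:29458374-29458403: tcccaccaCCAGCAGATGGAGCtgtgggta
A match is a description of the letters only, and binding at these places was not analysed here.

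In the teneurin genes Tenm2 and Tenm4, whose products are large transmembrane partners of latrophilins, loops whose best matches set 1 direction at each anchor were also convergent. The other loops of Tenm2 and Tenm4, among them the Tenm2 loop of lowest FDR, held no match with at most 1 mismatch at either anchor. The same was true of all loops of Tenm3. The matches are shown for the loops inside each gene that had the lowest FDR among those with a match at both anchors.
Tenm2 intron 7, plus strand, chr11:36253917-36253946: aacattatCCACCAGGGGACAGgaaggtta
Tenm2 intron 4, minus strand, chr11:36526578-36526607: caacacggCCACCAGAGGGCGCgaggtaca
Tenm4 intron 4, plus strand, chr7:96519364-96519393: tcgtcataCCACTAGATGTCAGtggtgttc
Tenm4, downstream of the gene end, minus strand, chr7:96914186-96914215: agaggtggCCACCAGGTGGCGCtatgagtg
The Tenm2 pair belonged to a 270 kb loop and the Tenm4 pair to a 400 kb loop. By contrast, the 520 kb loop at the start site of Slitrk5, a leucine-rich repeat receptor of synapses, carried matches on the minus strand at both anchors.
Slitrk5 upstream anchor, minus strand, chr14:111154844-111154873: tcatcttcCCAGCAGATGGTGGcaccttcc
Slitrk5 start-site bin, minus strand, chr14:111674842-111674871: cccagtggCCGGTAGGTGGCAGccgagggc
These matches had 1 mismatch each and did not face each other.

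Of the 41 genes, 25 had an anchored loop (61.0%) and 16 had none. Among the 21714 other protein-coding genes, 35.4% had one. Long genes offer more bins, so that the comparison was made by length. Under 50 kb, 4 of 12 members had an anchored loop, against 27.4% of other genes. Between 50 and 200 kb the members' count was 3 of 4, against 58.4%. Between 200 and 500 kb it was 5 of 7, against 79.6%. From 500 kb to 1 Mb it was 8 of 10, against 73.3%, and at 1 Mb or more it was 5 of 8, against 72.5%. Within each length class, then, the members' share lay near that of other genes, and with 4 to 12 members a class a difference of 1 gene moves it far.

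Each member was also set against all other protein-coding genes between 4/5 and 5/4 of its length. In 17 members the number of anchored loops was above the median of that pool, in 11 it was at the median and in 13 below it. Of the 11 at the median, 8 were genes without a loop whose pool had a median of 0. The number of loops increased with gene length, with a Spearman's rho of 0.405 across the 41 members and 0.328 across the other genes; genes are not independent replicates, and no test was made. Among the 8 members of 1 Mb or more the number ranged from 0 in Cntn4, Cntn5 and Cntnap2, over 3 in Nrxn3 and 4 in Csmd1, to 6 or 7 in Opcml, Tenm2 and Lsamp, as the plot of loops against length shows.

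**Figure D1:**
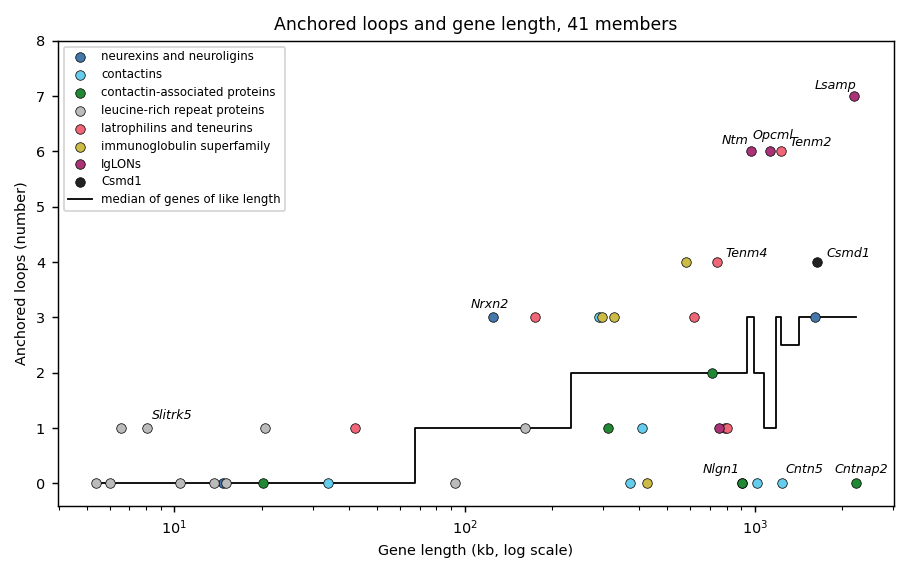
Number of anchored loops of each of the 41 genes against gene length in kb (log axis), coloured by family, with the median of other protein-coding genes of like length as a black line. Lsamp has 7 loops and Ntm, Opcml and Tenm2 have 6 each, while Nlgn1, Cntn5 and Cntnap2 of comparable length have none.

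In total, 68 distinct loops were anchored at the members, 1.0% of the list. Of these, 27 lay inside 1 gene, in 11 genes, and 41 did not. Of the latter, 5 had no anchor in the gene body and were counted for a bin within 20 kb of the start site, at Cntn3, Slitrk6, Dscaml1, Adgrl1 and Adgrl2. The families differed in how their loops were placed. The 6 latrophilin and teneurin genes all had an anchored loop and shared 18 loops, of which 14 were inside loops. The 4 IgLON genes among the members also all had one, with 18 loops, of which 8 were inside. The 11 genes of contactins and contactin-associated proteins had 7 loops in 4 genes, and the 11 leucine-rich repeat genes had 5 loops in 5 genes and no inside loop. Per length, latrophilins and teneurins held 7.21 anchor bins per Mb of gene body, immunoglobulin superfamily receptors 5.52 and IgLONs 4.15, whereas contactins held 0.89, contactin-associated proteins 1.19 and neurexins with neuroligins 1.5. The genome as a whole held 4.49 anchor bins per Mb, but this is not a baseline of like length. In other protein-coding genes the density fell with length, from 10.5 in genes under 50 kb to 3.22 in the longest class. The IgLON genes measure 755 to 2200 kb. Their 4.15 stands beside 4.09 in the class that begins at 500 kb and 3.22 in the longest. The values of contactins, contactin-associated proteins and neurexins with neuroligins lay below that of every length class.

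**Figure D2:**
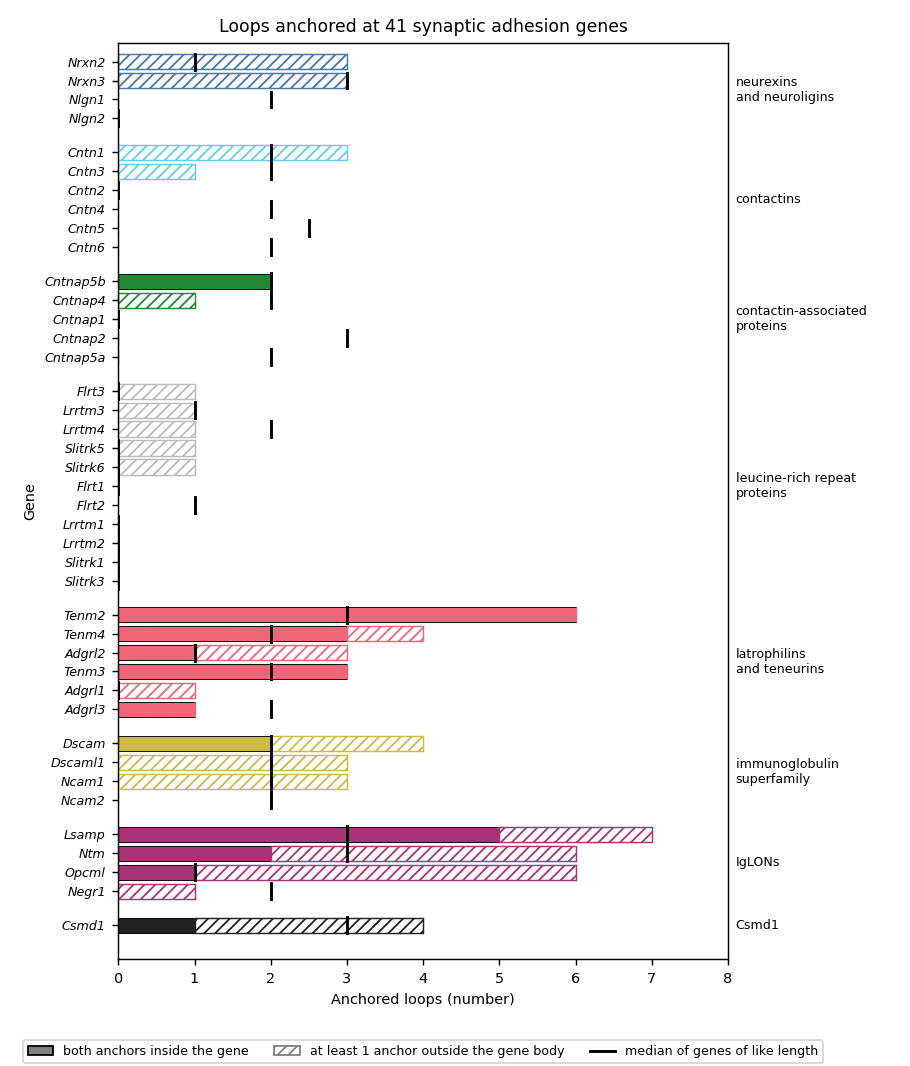
Number of anchored loops of each gene, grouped by family. Filled bars are loops with both anchors inside the gene, hatched bars are loops with at least 1 anchor outside the gene body, and black ticks are the median of other genes of like length. Loops of Tenm2 and Tenm3 are all inside the gene, while those of Nrxn2, Nrxn3, Cntn1 and Ncam1 all leave it.

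Neurexins are presynaptic receptors and neuroligins their postsynaptic partners. The neurexins each had 3 loops, all with 1 anchor outside the gene, and the neuroligins had no anchored loop. Nrxn2 (chr19:6418731-6544169, plus strand) was the gene of this family that stood above its length pool, whose median was 1 loop. Its loops began in adjacent bins over exons 10 to 17 and ran downstream over 100, 180 and 360 kb. The 180 kb loop had the lowest FDR of the family (0.000732), and the 360 kb loop ended in a bin with the start site of Ccdc88b. The bin at 6490001 also held internal start sites of coding Nrxn2 transcripts at 6497828 and 6497835. The shorter neurexin transcripts known as beta neurexins begin inside the gene, and whether these sites are theirs was not examined here.

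Nrxn3 (chr12:88722876-90334935, plus strand) extended over 1610 kb and had as many loops as its pool median, 3. From the bin at 89490001, in intron 9, loops ran 1230 kb into a bin of Dio2, a thyroid hormone deiodinase, and 1830 kb into a bin of Cep128, a centriole gene. Their FDR was 0.0644 and 0.00228, so that the longer loop was the better supported one. The remaining loop, of 270 kb and with an FDR of 0.0952, joined a bin 2876 bp upstream of the start site to intron 3. Nlgn1 (chr3:25426215-26332460, minus strand, 906 kb) had no loop, whereas 71.4% of its 70 length peers had one. Nlgn2, of inhibitory synapses, is a 14.7 kb gene and was passed over by a 180 kb loop, whose nearer anchor lay 22.2 kb from its start.

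Contactins are glycolipid-anchored immunoglobulin proteins of axons, and contactin-associated proteins are transmembrane relatives of neurexins that pair with them. In the 9 of these genes that were 200 kb or longer, 1.07 anchor bins per Mb were found, and 5 had no loop. Cntn1 (chr15:92051165-92341967) was the exception with 3 loops against a pool median of 2. Its best loop, at an FDR of 0.00143, joined a bin over exons 3 and 4 to a bin 81165 bp upstream of the gene, and a 440 kb loop reached a bin of Lrrk2, a kinase gene. Cntn3 had a single 230 kb loop with both anchors upstream, the nearer 6900 bp from the start site, and it was also spanned by loops of 1470 and 1560 kb. Cntn2, Cntn4, Cntn5 and Cntn6 had none.

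Among contactin-associated proteins, Cntnap4 (chr8:112570043-112882717, plus strand) had its start site in an anchor bin. That bin was joined to one 87284 bp past the gene end by a 400 kb loop at an FDR of 0.00143, and a 920 kb loop that spanned Cntnap4 ended in the same downstream bin. Cntnap5b had 2 loops, both inside the gene and both starting in intron 1 and ending in intron 11. The first, of 450 kb and FDR 0.0165, began 7236 bp from the start site, and the second, of 310 kb and FDR 0.0673, ended in the neighbouring bin. Cntnap5a, a close relative on the same chromosome, had none, nor had Cntnap1 and Cntnap2. In Cntnap2 (chr6:45059357-47304213), 2240 kb long, no bin served as an anchor, though 4 of its 5 length peers had a loop.

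The leucine-rich repeat proteins are mostly postsynaptic. LRRTM proteins bind neurexins, SLITRK proteins bind receptor tyrosine phosphatases, and FLRT proteins bind latrophilins. Most of these genes are short, and several lie within introns of other genes on the opposite strand. Lrrtm1, Lrrtm2 and Lrrtm3 lie within Ctnna2, Ctnna1 and Ctnna3, which encode alpha-catenins of cell junctions, while Flrt1 and Flrt3 lie within Macrod1 and Macrod2. At the nested genes, a loop counted for the inner gene also touched the outer one. The 450 kb loop of Lrrtm3 had its partner bin in Ctnna3 as well, so that it lay within the host gene as a whole. The same held for Flrt3, whose start-site bin was joined over 1580 kb to another bin of Macrod2 (FDR 0.0658). Ctnna2 had 4 anchored loops, none of which was at Lrrtm1. Lrrtm2 was passed over by 3 loops and Flrt1 by 1, of 130 kb at an FDR of 0.00105.

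Lrrtm4, which is not nested in this way, had the second exon of a coding transcript in an anchor bin 1124 bp from its start site, and this bin was joined to another 1740 kb away at an FDR of 0.0243. The Slitrk genes on chromosome 14 lie in the order Slitrk1, Slitrk6, Slitrk5, with 1830 kb and 920 kb between them. A loop of 880 kb, at the lowest FDR of the leucine-rich repeat genes (0.000233), ended 4852 bp upstream of Slitrk6 and spanned that gene. Its far bin, at 109880001, was also the first anchor upstream of Slitrk1, 966 kb from that gene's start. Slitrk5 (chr14:111675097-111683141) had its start site in the bin of the 520 kb loop described above. Slitrk1 and Slitrk3 had no anchored or spanning loop.

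Start sites were seldom in an anchor bin. An anchor bin lay within 20 kb of the start site in 15 members (36.6%), against 27.2% of other protein-coding genes of all lengths. The start site itself was in an anchor bin in 5 members (12.2%), against 7.09% of other genes. These were Cntnap4, Slitrk5, Flrt3, Adgrl2 and Adgrl3. Of the values next to the 20 kb limit, the anchor bin of Tenm4 lay inside it at 18755 bp and that of Opcml outside it at 20775 bp. The 100 bases upstream of the RefSeq start (GRCm38) are shown for those of these 5 genes that had a promoter within the start bin in that table, because they differ in base composition. The RefSeq start lay 930 bp downstream of the start site used here in Slitrk5 and 433 bp downstream in Adgrl3. Their windows thus lie inside the gene body. In Flrt3 it lay 7 bp upstream. Capitals mark the letters GGGCGG or CCGCCC, known as the GC box, which 24.7% of 32851 promoters of the table held on either strand in this window.
Slitrk5, plus strand, chr14:111675927-111676026: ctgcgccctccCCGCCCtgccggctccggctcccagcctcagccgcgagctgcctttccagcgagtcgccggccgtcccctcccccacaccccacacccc
Adgrl3, plus strand, chr5:81020471-81020570: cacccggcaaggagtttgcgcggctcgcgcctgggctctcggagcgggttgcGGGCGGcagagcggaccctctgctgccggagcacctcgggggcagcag
Flrt3, minus strand, chr2:140671477-140671576: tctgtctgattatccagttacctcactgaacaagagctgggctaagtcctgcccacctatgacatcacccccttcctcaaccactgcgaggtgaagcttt
Slitrk5 and Adgrl3 had a GC content of 78% and 75% in these windows, with 1 box each, and Flrt3 had 51% and no box, beside a median of 55% over all promoters.

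Latrophilins are adhesion G protein-coupled receptors that bind teneurins and FLRT proteins across the synapse. Each latrophilin gene had an anchor bin close to its start. In Adgrl1 the loop, of 130 kb at an FDR of 0.00972, ended 105 bp upstream of the start site and ran further upstream. Adgrl2 (chr3:148815583-148990555, minus strand) had 3 loops against a pool median of 1. An inside loop of 130 kb joined intron 1 to exon 9 at an FDR of 0.00636, and loops of 450 and 330 kb ran upstream from the start-site bin and its neighbour. Adgrl3 (chr5:81020138-81825133, plus strand) had 1 inside loop of 380 kb, from the start-site bin to intron 4, at an FDR of 0.0683. This loop ended at 47.8% of the gene's length, and the nearest anchors outside the gene were 3820 and 3750 kb away.

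The teneurin genes Tenm2, Tenm3 and Tenm4 held 8.12 anchor bins per Mb and 13 loops, of which 12 were inside loops. All 3 were above their pool medians. Tenm2 (chr11:36006656-37235964, minus strand, 1230 kb) had 6 loops, all inside, against a pool median of 3. Only 3 of its 41 length peers had more. A bin in intron 1, at 4.15% of the gene's length from the start, was joined to bins at 82.2% and 96.9%. The other loops of Tenm2 joined the stretch from 46.4% to 63.5%, all in intron 4, to bins between 79.8% and 96.1%. Their distances ranged from 270 to 480 kb, and the best of them had an FDR of 0.00874.

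Tenm3 (chr8:48227682-48843951, minus strand, 616 kb) had 3 loops that divided the gene near its middle. The bin over the last exon and the bin at 1.45% of the length from the start were joined to each other over 610 kb. Each was also joined to the middle of the gene, the last exon to a bin at 50.1% over 310 kb (FDR 0.0043) and the start to a bin at 46.9% over 280 kb (FDR 0.00126). The bin at 46.9%, in intron 2, held internal start sites of coding transcripts at 48555313, 48555846 and 48556039. The loop over the whole gene was the weakest of the 3, at an FDR of 0.0955.

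Tenm4 (chr7:96171246-96911093, plus strand, 740 kb) had 4 loops. A loop of 730 kb joined a bin in intron 1 to one 8908 bp past the gene end, and a loop of 450 kb joined the neighbouring bin of intron 1 to intron 7. The best loop of the gene, at an FDR of 0.00455, joined intron 4 to the gene end over 400 kb. The remaining 3 loops had FDR values between 0.0702 and 0.0758. An internal start site of a coding transcript, at 96777934, lay in the anchor bin of the shortest loop, of 130 kb.

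Tenm2, Tenm3 and Tenm4 thus each had a loop that ran from near the start to near the end. Such end-to-end loops, with each anchor within 5% of the gene length of a gene end, were found in 4 of the 25 members of 200 kb or longer (16%), against 4.83% of 973 other genes of that length. They covered 92.7% of the length of Tenm2, 99% of Tenm3, 98.7% of Tenm4 and 104% of Dscaml1. This definition was chosen after the teneurin loops were seen, so that its count is not an independent result. At FDR below 0.05 the end-to-end loops of Tenm2 and Dscaml1 were left, 8.0% of members against 3.91% of other genes. With 10% allowed at each end, the members' count was again 4 and that of other genes rose to 10.6%.

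**Figure D3:**
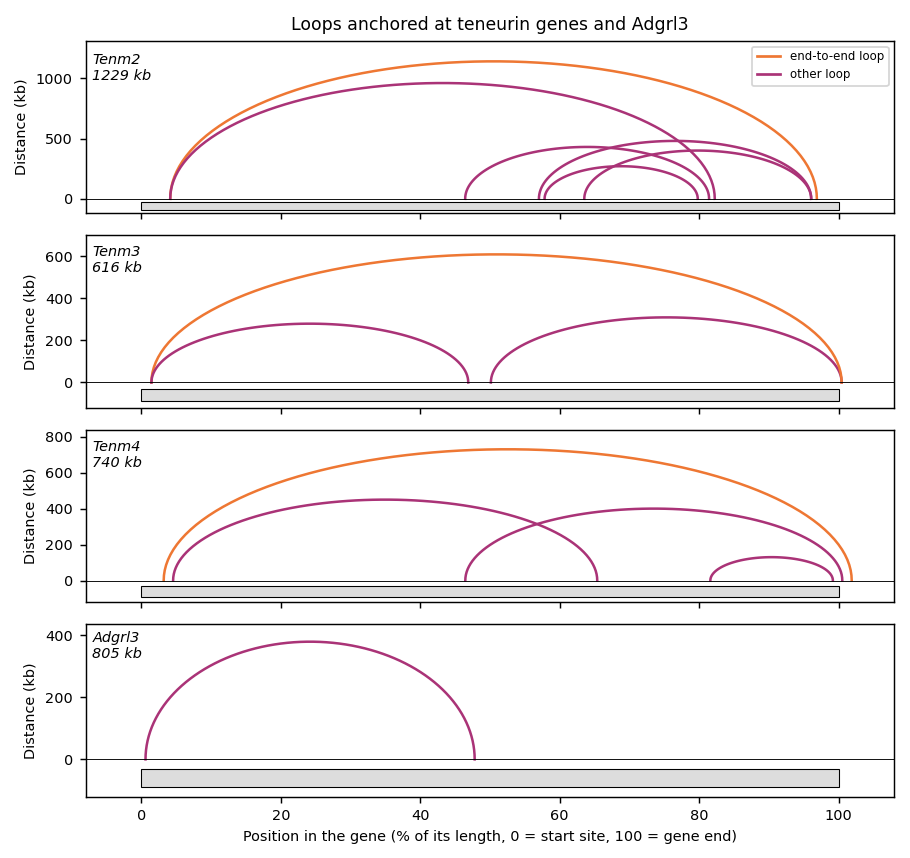
Loops of Tenm2, Tenm3, Tenm4 and Adgrl3 along each gene, from the start site (0%) to the gene end (100%), with loop distance in kb as the height of each arc. Orange arcs run from end to end of a teneurin gene, over 1140, 610 and 730 kb, and purple arcs are the other anchored loops.

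The immunoglobulin superfamily receptors Dscam, Dscaml1, Ncam1 and Ncam2 act in self-avoidance and in axon and synapse adhesion. Dscam (chr16:96590840-97170752, minus strand) had 4 loops, 2 of them inside, against a pool median of 2. A bin in intron 3, at 51.0% of its length, was joined to a bin 752 bp from the start site over 290 kb and to a bin 99249 bp upstream of the gene over 400 kb. A loop of 200 kb joined intron 20 to a bin with the start site of Pcp4, a calmodulin regulator. Dscaml1 (chr9:45426628-45753712, plus strand) had 3 loops. The end-to-end loop of 340 kb had an FDR of 0.000183, the lowest of all 68 loops. Its upstream bin, 6628 bp before the start site, overlapped Fxyd2, a regulator of the sodium pump.

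Ncam1 (chr9:49502136-49798925, minus strand) had 3 loops and none inside. They formed a corner. The bin over the last exons was joined to bins 371076 and 631076 bp upstream of the start site, and a bin in intron 1 was joined to the nearer of these. Their distances were 670, 930 and 550 kb. Ncam2, with 426 kb, had no loop, whereas 78.4% of its 255 length peers had one.

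IgLONs are small glycolipid-anchored proteins of the neuronal surface, and the members that encode them are very long genes. Opcml (chr9:27790775-28925410, plus strand) and Ntm (chr9:28994750-29963141, minus strand) lie tail to tail with 69.3 kb between them. Each had 6 loops, and only 2 of the 51 length peers of Opcml and 3 of the 66 length peers of Ntm had more. The anchor bin of Opcml at 28260001, with the CTCF match shown above, was used by 3 loops, the most of any bin of these genes. It was joined to Ntm intron 1 over 1380 kb at an FDR of 0.000406 and over 1190 kb at an FDR of 0.00314. The third loop from it ran 140 kb to a bin over Opcml exon 2, which held the start site of a coding transcript at 28403797. Of the 10 anchor bins in these gene bodies, 7 lay in the first introns. These introns are long, so that the count does not by itself show a preference for them. The bin over Opcml exon 2 lay at 54.1% of that gene's length, and an Ntm bin at 52.5% was still in intron 1.

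The other Opcml loops ran upstream from intron 1. A loop of 840 kb reached a bin of Spata19, a sperm mitochondrial gene, at an FDR equal to that of the longest Opcml loop, and loops of 680 and 430 kb had an FDR of 0.0986 and 0.0633. In Ntm, loops of 620 and 750 kb left intron 1 in the upstream direction. Inside Ntm, the bin at 29200001 in intron 2 was joined over 200 and 250 kb to bins further towards the start. The 250 kb loop ended in the same bin as the 1190 kb loop from Opcml, so that this bin was reached from both genes.

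Lsamp (chr16:39984361-42181679, plus strand, 2200 kb) had 7 loops, more than any other member, and 5 of them were inside. They formed separate groups. Upstream of the middle, bins in intron 1 were joined to adjacent bins of intron 2 over 510 and 220 kb. Farther along the gene, bins at 58.3%, 65.1% and 70.1% of its length were joined to adjacent bins of intron 3 over 580, 430 and 310 kb. The first 2 of these ended in the same bin, at 84.7%, and the third in the adjacent bin, at 84.2%, while the left ends differed. A loop of 1870 kb joined intron 2 to a bin 874 kb upstream of the gene, and a loop of 1400 kb joined the gene end to a bin of Zbtb20, a transcription factor gene. The start site of Lsamp lay 475640 bp from the nearest anchor bin. The length pool of Lsamp had 5 genes, 1 of which had more loops.

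Negr1, the remaining IgLON gene among the members, is 755 kb long and had 1 loop of 210 kb from intron 6 to a bin 124 kb past the gene end (FDR 0.00545). Its start site was 668207 bp from an anchor bin, farther than in any other member with a loop. Csmd1, a complement-regulating transmembrane protein gene of 1640 kb, had 4 loops against a pool median of 3. Of these, 1 lay within intron 3, over 130 kb, and 3 joined the distal part of the gene to bins 122537 to 622537 bp past the gene end. None of the Csmd1 loops had an FDR below 0.01.

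**Figure D4:**
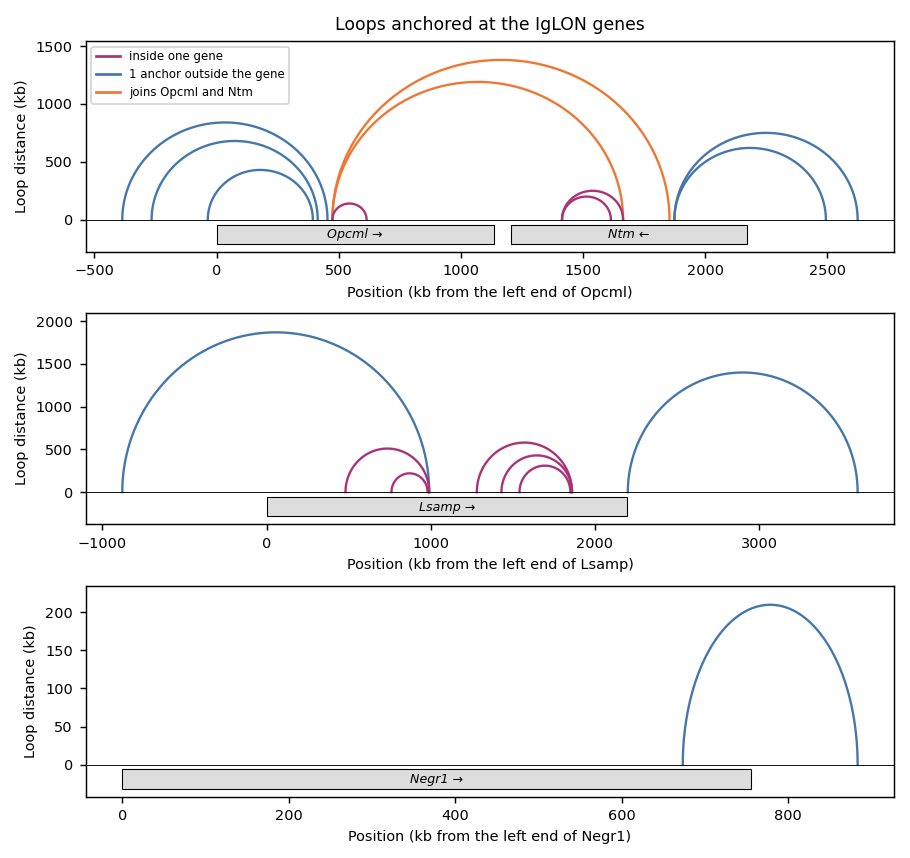
Loops anchored at Opcml and Ntm, at Lsamp and at Negr1, drawn as arcs over the gene bodies (grey, with the direction of transcription), with the position in kb from the left end of the first gene and the height of each arc as the loop distance in kb. The orange arcs of 1190 and 1380 kb join Opcml and Ntm, and purple arcs lie inside 1 gene.

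The 16 genes without an anchored loop differed in their surroundings. In 3 of them, Nlgn2, Lrrtm2 and Flrt1, a loop passed over the gene, and 13 had neither kind. Altogether 7 members were spanned by 11 loops (17.1%), against 28.1% of other genes of all lengths. A loop can pass over only a gene shorter than itself, and this comparison was not made by length. Of the 41 members, 25 were 200 kb or longer, against 973 of the 21714 other genes. Of the 11 members of 900 kb or longer, 5 had no loop (45.5%): Nlgn1, Cntn4, Cntn5, Cntnap2 and Cntnap5a. Of 68 other genes of that length 22 had none (32.4%). The stretch without any anchor bin around Cntnap5a extended over 5940 kb and that around Nlgn1 over 5390 kb. Flrt2, a gene of 93.0 kb, lay in 4350 kb without an anchor and Ncam2 in 3660 kb. Cntn6 and Cntn4, side by side on chromosome 6, shared a single stretch of 3110 kb. In Cntnap2 the stretch was 3620 kb, and an anchor bin stood 29.4 kb upstream of its start site. By contrast the stretch was 120 to 510 kb around Flrt1, Nlgn2, Cntn2, Lrrtm2 and Cntnap1.

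**Figure D5:**
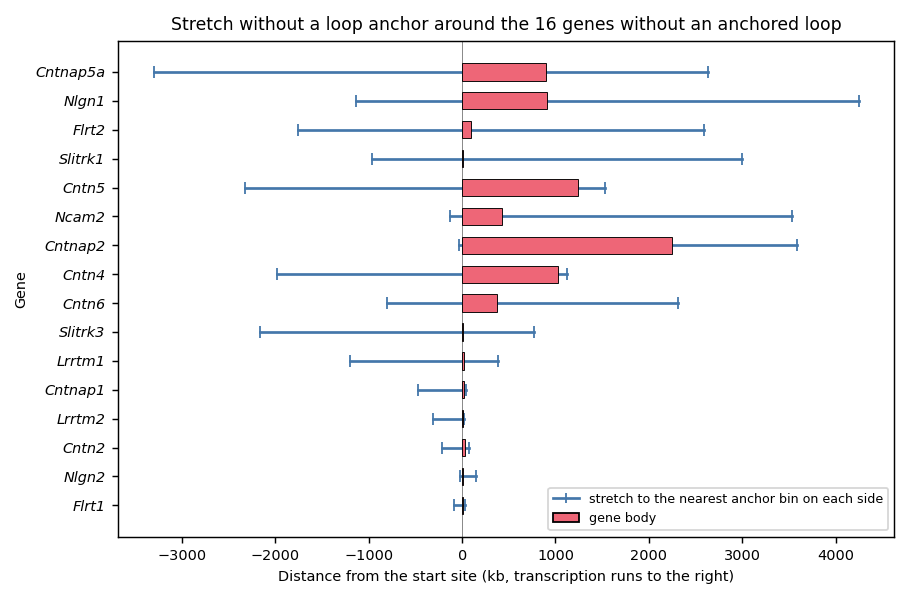
Stretch from the nearest anchor bin on one side of the gene to the nearest on the other for the 16 genes without an anchored loop, in kb from the start site with transcription to the right. Gene bodies are red. The stretch is widest around Cntnap5a (5940 kb) and Nlgn1 (5390 kb).

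Base composition moved with the presence of loops among long genes, members and others alike. The 13 members of 500 kb or longer with a loop had a median GC content of 40.3% (range 37.1 to 45.5) and the 5 without had 37.8% (37.4 to 38.8), so that the latter fell within the range of the former. In other genes of that length the medians were 40.7% for 155 genes with a loop and 38.0% for 57 without. The median number of start sites of other protein-coding genes within 1 Mb was 5 for members with a loop and 4 for those without, and 11 and 7 for other genes. The part that base composition or gene density has in these counts was not tested.

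Inside loops were a frequent form among the longest members. Of 18 members of 500 kb or longer, 10 had an inside loop (55.6%), against 46.2% of 212 other genes of that length. Among genes of 200 kb or longer, 26 of 57 members' loops lay inside 1 gene (45.6%, 95% Wilson interval 33.4 to 58.4), against 450 of 1937 loops at other genes (23.2%, 21.4 to 25.2). The intervals did not overlap, but they cover counting error over loops only, and the members were longer, with a median of 791 kb against 324 kb. The inside loops of members spanned a median of 310 kb (interval of the median 250 to 450), against 210 kb (200 to 220) inside other genes of 200 kb or longer. In spite of these inside loops, members of 200 kb or longer held 3.06 anchor bins per Mb and other genes of that length 4.99. Split by length, members held 3.29 against 5.95 in the class that begins at 200 kb. In the class that begins at 500 kb they held 3.73 against 4.09, and in the longest class 2.6 against 3.22.

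Loops at the members were longer than those of the whole list. Their median distance was 430 kb (interval 360 to 510, quartiles 270 and 692, 68 loops), against 280 kb over the whole list and 350 kb (340 to 370) at other genes of 200 kb or longer, which overlaps the members' interval at its edge. At least 1 Mb was covered by 10 loops (14.7%, 8.19 to 25), against 6.73% (5.69 to 7.93) at other long genes. These 10 loops belonged to the IgLONs Opcml, Ntm and Lsamp, to Tenm2, Nrxn3, Lrrtm4, Flrt3 and Csmd1. Members of 200 kb or longer had a median length of 791 kb, against 324 kb in the other long genes. Loop distances were not compared at like gene length. The members' loops had a median FDR of 0.0221, against 0.0113 over the list, and 70.6% of them (58.9 to 80.1) had an FDR below 0.05, against 78.8%. A few bins carried several loops. Of 83 anchor bins in or near a member, 15 were used by more than 1 loop (18.1%, against 13.4% of all anchor bins). Of the 77 in a gene body, 29 overlapped an exon of a coding transcript and 48 lay wholly in introns or beyond coding transcripts. This count was not made for the other bins of these genes or for other genes, so that no preference can be read from it.

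At the letters of the CTCF consensus, with at most 1 mismatch on either strand, 45 of the 119 anchor bins of members' loops held a match (37.8%, 29.6 to 46.8). Over all anchor bins of the list the share was 48.4% (47.5 to 49.3), at other genes of 200 kb or longer 46.1% (44.4 to 47.7), and over all 10 kb bins of these chromosomes 21.4%. The members' share thus lay above that of the genome and its interval overlapped that at other long genes. It came closer to the list among loops of lower FDR. Below 0.05 it was 43.7%, against 51.3%, and below 0.01 it was 53.1%, against 54.6%. Members' anchor bins were also poorer in GC, with a median of 42.6% against 44.1% over the list and 43.3% at other long genes, and the part of this in the share of matches was not tested.

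In 14 of the members' loops the best match at each anchor set 1 direction, and a weaker match on the other strand did not count. These best matches faced each other in 10 (71.4%, 45.4 to 88.3) and faced apart in none, which allows a share of up to 21.5% by the same interval. Over the whole list 68.3% were convergent and 3.13% divergent. The 10 convergent loops lay in Tenm2 (3), Tenm4 (2), Nrxn2, Adgrl1 and the Opcml and Ntm region (3). In the tandem loops, with best matches in the same direction, were the loop of Slitrk5, a 200 kb loop in Ntm, and a pair of Opcml loops of 840 and 140 kb. The right bin of the 200 kb Ntm loop also held a match with 1 mismatch on the other strand. So did the right bin of the convergent 400 kb loop of Tenm4.

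A further 44 genes of synaptic adhesion were counted by the same rules, among them receptor tyrosine phosphatases, calsyntenins, SynCAMs, netrin-G proteins and the L1 family. An anchored loop was found at 23 of them (52.3%) and an inside loop at 9. Under 50 kb the count was 4 of 15, against 27.4% of all protein-coding genes that are not members. Between 50 and 200 kb it was 8 of 10, against 58.4%, and between 200 and 500 kb 5 of 6, against 79.6%. From 500 kb to 1 Mb it was 1 of 7, an inside loop of Clstn2, far below the 73.3% of non-members. At 1 Mb or more it was 5 of 6, each with an inside loop, against 72.5%. Inside loops were found at 43.5% of non-members from 500 kb to 1 Mb and at 54.9% of those of 1 Mb or more. The 44 genes are themselves counted among the non-members, and with 6 to 15 genes a class no test was made. Of the relatives of the members in this list, Tenm1 on chromosome X (901 kb) and Cntnap5c (641 kb) had no loop, unlike the other teneurins and like Cntnap5a. Csmd3 had 1 loop, inside the gene, and Csmd2 none. Iglon5, a further IgLON gene of 17.2 kb, had no anchored loop, unlike the much longer IgLON genes among the members. Ptprd, a phosphatase that SLITRK proteins bind, had 3 loops, all inside its 2270 kb.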

How the data were processed

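Micro-C libraries of 4 whole-cochlea samples were merged by the authors. They aligned reads to mm10 with BWA-MEM, removed duplicates with pairtools, kept chimeric pairs, built contact matrices with Juicer tools and ran the loop caller Mustache at 10 kb resolution. Tool versions are not given in the sources used here. The deposited FDR (a q-value) and the detection scale (a score) of each loop were computed by the authors' caller on the merged data. ATAC-seq and CUT&RUN samples were not analysed here.

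From the list, bins were joined to GENCODE vM21 protein-coding genes on GRCm38 (RefSeq letters and promoters of the same build). Start sites are the 5′ ends of gene records. An anchored loop had a bin in the gene body or within 20 kb of the start site. Exons and introns are those of the coding transcript with the longest span. Like-length pools held non-members of 4/5 to 5/4 of the length, and some long gene records in them are readthrough models. The interval of a median is its 95% order-statistic interval. The CTCF consensus of 14 bases came from general knowledge, allowed 1 mismatch, and was searched on both strands with 8 flanking bases shown; the best match of a bin set its direction, ties were left out, and bins with over 10% unknown bases did not count. Loops are given with details for members with an inside loop or a start site in an anchor bin, and for the loop of lowest FDR in each family. Other genes are named where they hold a partner anchor, host a member or belong to the list of 44. Python 3.11.15, numpy 2.4.6, pandas 2.3.3, scipy 1.17.1 and matplotlib 3.10.9 were used. The counting steps were tested on simulated data, in which all 50 planted genes and 100 planted motifs were recovered. The members and lists were chosen with earlier results of these data known. Alternatives were stricter FDR limits, the smallest detection scale, merged calls, other windows, pools and mismatch limits.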

Additional observations from a re-analysis of the deposited data

How the results depend on the processing

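No paired analysis was possible because the loops come from pooled data of 4 samples without a value for each, which also kept any sample from being left out. Of 58 alternative values, 43 moved by no more than the limit set for them (1.5 times for a count, the interval for a share or median). Of the 15 others, most came from a stricter FDR limit. At FDR below 0.01 there were 26 loops anchored at members, 10 inside loops, 6 members with an anchor within 20 kb of the start site, 10 members above the median of like-length genes, 4 spanned members, 1 member with an end-to-end loop and 53.1% of anchor bins with a CTCF match. At FDR below 0.05, 9 members had an anchor within 20 kb of the start site and 2 had an end-to-end loop. The smallest detection scale alone left 45 anchored and 17 inside loops. With 50 kb in place of 20 kb around the start site, 25 members had an anchor there. Without a mismatch 11.8% of bins held a CTCF match, with 2 mismatches 87.4%, and the convergent share with 2 mismatches was 44.1%. Members with an anchored loop numbered 22 and 17 at the FDR limits of 0.05 and 0.01. The alternatives for end-to-end loops were chosen after seeing the data. Depth limits all counts, since the number of read pairs behind a bin is unknown and a missing call does not show a missing contact.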
